A study of Mus musculus with 8 samples.

Results

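The genes described here are those of granzyme B and perforin, of 3 proteins of the cytotoxic granule, and of 5 serpins, measured by RNA-seq in regulatory T cells (Tregs) cultured with or without oxPAPC. They were chosen by name, and all 10 are among the 19330 genes of the deposited table. Naive CD4+ T cells from the spleen of mice of genotype B6 were polarized to Tregs in culture for 3 days. The Control group holds 4 libraries of cells cultured without oxPAPC. The oxPAPC group holds 4 libraries of cells cultured with it, oxPAPC being a mixture made by oxidizing the phospholipid PAPC. The labels name no other allele, age or polarizing agent, and nothing in them ties a replicate to a mouse or culture of its own. The p-values therefore reflect the spread between these libraries, which may be technical.

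Granzyme B is a serine protease that cytotoxic lymphocytes and some Tregs store in granules, where the proteoglycan serglycin (Srgn) holds it. When granules are released, perforin (Prf1) forms pores through which granzyme B reaches the target cell and cleaves caspases and Bid. Serpins are protease inhibitors that trap their protease in a covalent complex, and several that stay inside the cell protect the granule-bearing cell from its own proteases.

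The libraries held 14017583 to 21619731 gene counts each. Levels are given as CPM, the usual unit of counts normalised to library size, after TMM scaling, TMM being a factor per library that sets the bulk of genes level between libraries. Differences were tested with edgeR's quasi-likelihood test on the whole table, and a gene is said to have risen or fallen where its Benjamini-Hochberg adjusted p over 16434 tested genes was under 0.05. The T cell and Treg genes Cd3e, Cd4, Foxp3, Il2ra, Ctla4 and Ikzf2 were all present, with Control means of 136, 469, 154, 541, 149 and 146 CPM. None of the 9 genes on the Treg list was called with edgeR, where 13.3% of all tested genes were. A list this short cannot set none called apart from that share. Of these 9 genes 2 had an unadjusted p under 0.05 in edgeR's test. Foxp3 had a log2 fold change of -0.09, which became 0.05 with scaling by library size alone, a scaling that moved the median of all genes from -0.01 to 0.12. DESeq2 called 1 of the 9, Il2ra (adjusted p = 0.0279), for which edgeR gave a log2 fold change of 0.60 and an adjusted p of 0.0902. The noncoding RNA Gm26917 took 8.59% to 29.1% of the counts of Control libraries and 9.35% to 19.4% of those of oxPAPC libraries.

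Granzyme B, serglycin and 3 serpins were higher in the oxPAPC libraries, while perforin was near the limit of detection in both groups. Gzmb, Srgn, Serpinb9, Serpina3f and Serpina3g rose, none of the 10 genes fell, Nkg7, Ctsw, Serpinb6a and Serpinb6b were not called, and Prf1 was too low to be tested. No gene fell with DESeq2 either, and at an unadjusted p under 0.05 in edgeR's model across all genes 1 gene, Serpinb6b, was lower. Across all tested genes, 13.3% were called, 6.75% higher and 6.52% lower. The median log2 fold change was 0.82 over the 9 tested genes and -0.01 over all tested genes. Serpina3f and Serpina3g passed the filter on low counts only with the help of the oxPAPC libraries, in which they were high, so that these counts and this median are a description. The same 5 of the 10 genes have an adjusted p under 0.05 in the authors' deposited table.

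**Figure D1:**
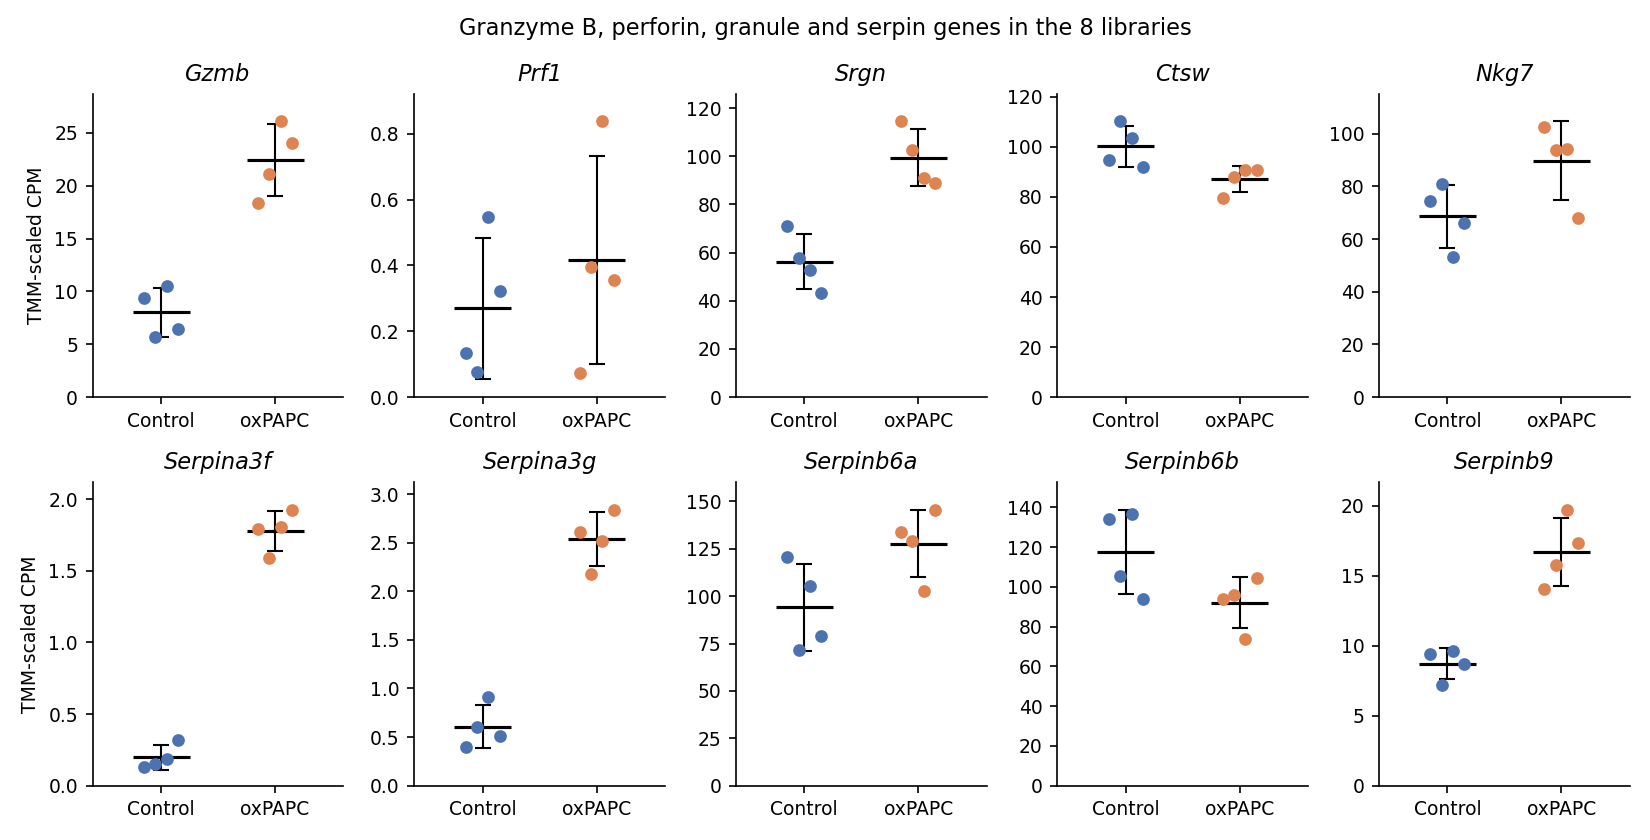
TMM-scaled CPM (y axis, from 0, scaled separately for each gene) in the 4 Control and 4 oxPAPC libraries, each point being a library, with the mean as a long line and the SD as an error bar. The groups do not overlap for Gzmb, Srgn, Ctsw, Serpina3f, Serpina3g and Serpinb9, and Prf1 is at most 0.838 CPM in every library.

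The sequence just before the transcription start is shown for the 5 genes that rose, because these genes rose. Each line holds 250 bases of GRCm38.p6 upstream of a RefSeq transcription start, 5′ to 3′ on the strand of the gene, with capitals for any match to the searched motifs. The windows are chr14:56262335-56262584 for Gzmb and chr10:62527446-62527695 for Srgn, both on the minus strand. Those on the plus strand are chr13:33004291-33004540 for Serpinb9, chr12:104214294-104214543 for Serpina3f and chr12:104235897-104236146 for Serpina3g.
Gzmb: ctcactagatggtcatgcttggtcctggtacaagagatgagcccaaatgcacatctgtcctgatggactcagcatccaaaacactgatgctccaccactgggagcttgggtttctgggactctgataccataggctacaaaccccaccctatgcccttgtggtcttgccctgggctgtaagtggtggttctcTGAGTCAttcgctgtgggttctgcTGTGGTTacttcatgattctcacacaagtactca
Srgn: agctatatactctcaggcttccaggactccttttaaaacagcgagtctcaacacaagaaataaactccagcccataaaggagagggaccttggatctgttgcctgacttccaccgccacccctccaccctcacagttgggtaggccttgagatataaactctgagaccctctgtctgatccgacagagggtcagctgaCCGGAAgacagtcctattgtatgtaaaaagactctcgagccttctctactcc
Serpinb9: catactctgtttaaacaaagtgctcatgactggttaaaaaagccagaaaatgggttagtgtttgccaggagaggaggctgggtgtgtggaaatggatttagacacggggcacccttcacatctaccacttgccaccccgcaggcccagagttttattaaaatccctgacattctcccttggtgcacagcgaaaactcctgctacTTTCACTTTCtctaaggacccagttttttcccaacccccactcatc
Serpina3f: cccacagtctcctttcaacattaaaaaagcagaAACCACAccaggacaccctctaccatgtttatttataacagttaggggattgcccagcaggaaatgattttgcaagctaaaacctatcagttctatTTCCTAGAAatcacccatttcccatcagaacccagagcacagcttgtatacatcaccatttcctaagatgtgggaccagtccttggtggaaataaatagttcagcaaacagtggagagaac
Serpina3g: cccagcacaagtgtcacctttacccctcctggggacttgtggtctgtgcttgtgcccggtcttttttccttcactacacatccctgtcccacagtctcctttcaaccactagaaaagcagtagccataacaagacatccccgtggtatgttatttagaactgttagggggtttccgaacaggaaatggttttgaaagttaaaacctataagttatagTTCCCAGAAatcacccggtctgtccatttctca

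The following motifs were searched on both strands: AP-1 (TGANTCA), RUNX (TGTGGTT), the CRE half-site (TGACG), GAS, the element that STAT dimers bind (TTCNNNGAA), the core of the interferon-stimulated response element (ISRE), T-box (AGGTGTGA), NF-kB and ETS (CCGGAA). An AP-1 match and a RUNX match lie 58 and 34 bases before the Gzmb start, counted to the first base of the match, and such matches are found in 6.75% and 4.40% of the 32851 upstream windows of the same length in the RefSeq table. Serpina3f and Serpina3g both hold a GAS match, TTCCTAGAA at 121 and TTCCCAGAA at 33 bases before their starts, within a stretch of 144 aligned bases that is 82.6% identical between them. GAS matches occur in 7.02% of all windows, and they are also present upstream of Nkg7 and Serpinb6a, which were not called. Serpinb9 holds an ISRE core match 46 bases before its start, found in 2.98% of windows. Serpinb6a has one too, overlapping its GAS match. Srgn holds an ETS match at 52 bases, a motif of 12.0% of windows, and Serpina3f also has a RUNX match at 217 bases. The Serpinb9 start used here lies 1291 bases inside the GENCODE gene, and the bases just after it occur in a GENCODE transcript of Serpinb9. These matches describe the letters of the window and not bound sites. Distances are counted from the RefSeq starts, which for Gzmb and Serpina3g lie 74 and 98 bases upstream of the GENCODE start of the gene. For Serpina3f the RefSeq and GENCODE starts coincide, so the positions of the GAS matches depend on the start used. RefSeq windows were matched for 9 of the 10 genes, Ctsw being the exception.

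Gzmb, the gene of the protease itself, spans positions 56258838 to 56262260 of chromosome 14 in GRCm38, on the minus strand. It had 9.38, 5.66, 10.6 and 6.49 CPM in Control replicates 1 to 4 and 18.4, 21.1, 26.1 and 24.1 CPM in oxPAPC replicates 1 to 4. Every oxPAPC library lay above every Control library, and the raw counts ranged from 75 to 231 and from 246 to 592. The group means were 8.02 ± 2.32 and 22.4 ± 3.40 CPM (SD, n = 4 each), 2.79-fold apart (log2 scale: 1.48 ± 0.20, SE; edgeR adjusted p = 0.000408). Non-overlapping groups were found for 6 of the 10 genes, 5 higher and 1 lower in oxPAPC. Over all tested genes 9.49% did not overlap upward and 9.86% downward.

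Prf1, which encodes the pore that carries granzyme B into a target cell, was scarce in both groups. It had 2, 1, 12 and 7 counts in Control replicates 1 to 4 and 1, 6, 19 and 7 counts in oxPAPC replicates 1 to 4, among 14017583 to 21619731 counts per library. The highest library, oxPAPC replicate 3, had 0.838 CPM with an exact Poisson 95% interval of 0.505 to 1.31 CPM, and the lowest, oxPAPC replicate 1, had 0.0746 CPM with an interval of 0.00189 to 0.416 CPM. These intervals cover counting error only. The groups overlapped, at 0.270 ± 0.214 and 0.416 ± 0.316 CPM (SD, n = 4 each). Fitted without the filter, the log2 fold change of Prf1 came to 0.60 ± 0.63 (SE; edgeR adjusted p = 0.601), so that a difference was not detectable at this depth. Per kilobase of exon, the mean level of Gzmb was 53.5 times that of Prf1 in Control and 96.9 times in oxPAPC libraries.

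Srgn, on chromosome 10 between positions 62493833 and 62527451, encodes the core protein of serglycin. Its level was 71.2, 57.6, 52.9 and 43.4 CPM in Control replicates 1 to 4 and 115, 103, 90.9 and 89.0 CPM in oxPAPC replicates 1 to 4. The lowest oxPAPC library was above the highest Control library. Its difference in log2 units, 0.82 ± 0.16 (SE; edgeR adjusted p = 0.00489), was smaller than that of Gzmb, but the count ratio of Gzmb to Srgn within a library overlapped between groups, at 0.0983 to 0.199 in Control and 0.160 to 0.287 in oxPAPC.

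Nkg7 and Ctsw, also genes of cytotoxic granules, were well expressed in both groups and were not called. Nkg7 encodes a granule membrane protein that promotes granule release. Its values were 74.4, 81.0, 53.2 and 66.0 CPM in Control replicates 1 to 4 and 103, 93.9, 94.3 and 68.1 CPM in oxPAPC replicates 1 to 4. The groups overlapped through oxPAPC replicate 4, and the log2 fold change was 0.39 ± 0.17 (SE, edgeR adjusted p = 0.151). Ctsw encodes cathepsin W, a papain-like cysteine protease of cytotoxic lymphocytes. It had 94.8, 110, 103 and 91.9 CPM in Control replicates 1 to 4 and 79.7, 87.9, 90.7 and 90.8 CPM in oxPAPC replicates 1 to 4. All oxPAPC libraries lay below all Control libraries, the nearest values being 90.8 and 91.9 CPM, and the log2 fold change of -0.20 ± 0.13 was not called (SE, edgeR adjusted p = 0.361). Ctsw overlaps Fibp on the other strand, and the labels do not say whether reads were assigned by strand, so reads of the pair may be mixed.

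Among the serpins, Serpinb9 encodes the intracellular inhibitor of granzyme B. It lies on chromosome 13 between positions 33003250 and 33017957. Control replicates 1 to 4 had 9.38, 7.17, 9.64 and 8.69 CPM, and oxPAPC replicates 1 to 4 had 14.0, 15.7, 19.7 and 17.3 CPM. The groups did not overlap, with means of 8.72 ± 1.11 and 16.7 ± 2.42 CPM (SD, n = 4 each) 1.91-fold apart (log2 scale: 0.94 ± 0.16, SE; edgeR adjusted p = 0.00204). Protease and inhibitor thus both rose, and their ratio can be read within each library without any scaling. The count ratio of Gzmb to Serpinb9 was 1.00, 0.789, 1.09 and 0.746 in Control replicates 1 to 4 and 1.31, 1.34, 1.32 and 1.39 in oxPAPC replicates 1 to 4. It was higher in each oxPAPC library than in any Control library, with an SD of 0.0348 among oxPAPC and 0.167 among Control libraries. The counts behind it were lower in Control libraries, at 75 to 231 for Gzmb and 95 to 211 for Serpinb9. In oxPAPC libraries they were 246 to 592 and 188 to 447. The part of counting error in these SDs was not tested. This pair was chosen after the values were seen. Of the 36 pairs among the 9 tested genes, 23 had count ratios that did not overlap between groups.

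Serpina3g, which encodes an inhibitor of lysosomal cathepsins also called Spi2A, and its close paralog Serpina3f had the largest fold changes of the 9 tested genes. Both are on the plus strand of chromosome 12, Serpina3f between positions 104214544 and 104221129 and Serpina3g between 104236245 and 104241939. Serpina3f had 2, 2, 4 and 7 counts in Control replicates 1 to 4 and 24, 24, 41 and 38 counts in oxPAPC replicates 1 to 4, or 0.197 ± 0.0857 and 1.78 ± 0.141 CPM (SD, n = 4 each). The lowest oxPAPC library, at 1.59 CPM, was well above the highest Control library, at 0.322 CPM. In log2 units the difference was 3.07 ± 0.36 (SE; edgeR adjusted p = 0.000138), in a gene that passed the filter only because its oxPAPC counts were high. Serpina3g had 6, 8, 20 and 11 counts in Control replicates 1 to 4 and 35, 33, 57 and 56 counts in oxPAPC replicates 1 to 4. These correspond to 0.606 ± 0.222 and 2.54 ± 0.273 CPM (SD, n = 4 each), again without overlap, and to a difference of 2.03 ± 0.31 in log2 units (SE; adjusted p by edgeR = 0.000777). Transcripts of the pair are 89.6% identical over 1738 aligned bases. Of the 50-base words in their transcripts, 10.6% for Serpina3f and 15.5% for Serpina3g also occur in transcripts of other genes, and 3.40% and 3.49% of 100-base words do, and what this meant for the assignment of reads was not measured.

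**Figure D2:**
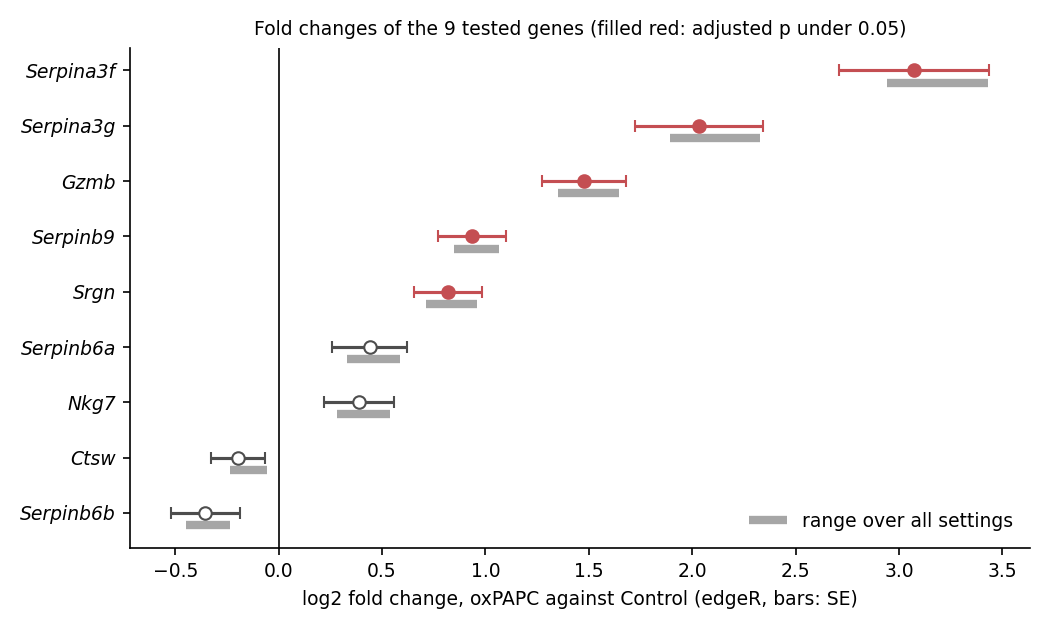
Log2 fold change of oxPAPC against Control (x axis) for the 9 tested genes (y axis), with the SE as error bar and filled red points for an adjusted p under 0.05. Grey bars give the range over every processing alternative, and none of them crosses 0.

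Serpinb6a and Serpinb6b, paralogs of the intracellular clade B of serpins, were abundant in both groups, had log2 fold changes of opposite sign, and were not called. Serpinb6a had 121, 71.4, 105 and 78.9 CPM in Control replicates 1 to 4 and 134, 129, 103 and 145 CPM in oxPAPC replicates 1 to 4 (log2 fold change 0.44 ± 0.18, SE, edgeR adjusted p = 0.131). Serpinb6b had 134, 106, 137 and 93.9 CPM in Control replicates 1 to 4 and 93.9, 96.0, 73.9 and 104 CPM in oxPAPC replicates 1 to 4 (log2 fold change -0.35 ± 0.17, SE, edgeR adjusted p = 0.182). Each gene overlapped between groups. For Serpinb6a, Control replicates 1 and 3 lay above oxPAPC replicate 3, and for Serpinb6b, Control replicate 4 lay within the oxPAPC range. The sum of the 2 genes also overlapped, at 212 ± 42.9 and 220 ± 30.7 CPM (SD, n = 4 each).

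Their ratio within a library separated the groups. The count ratio of Serpinb6a to Serpinb6b was 0.900, 0.676, 0.769 and 0.840 in Control replicates 1 to 4 and 1.42, 1.34, 1.39 and 1.39 in oxPAPC replicates 1 to 4. Serpinb6b was the more abundant of the pair in every Control library, and Serpinb6a in every oxPAPC library, on the scale of raw counts and not per length. The mean log2 ratio differed by 0.81 and ranged from 0.73 to 0.87 with any one library left out. Of the 6 pairs among the 4 genes that were not called, this was the only one whose groups did not overlap. The pair was singled out after its values were seen, so it has no p-value. Transcripts of the pair are 85.1% identical over 1243 aligned bases, yet only 2.92% of the 50-base words of Serpinb6b occur in another gene. For Serpinb6a 25.1% do, most often in Nqo2, which overlaps it on the other strand, as do Ripk1 and 1110046J04Rik, so reads of these genes could count toward Serpinb6a. Their part in the ratio was not tested.

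**Figure D3:**
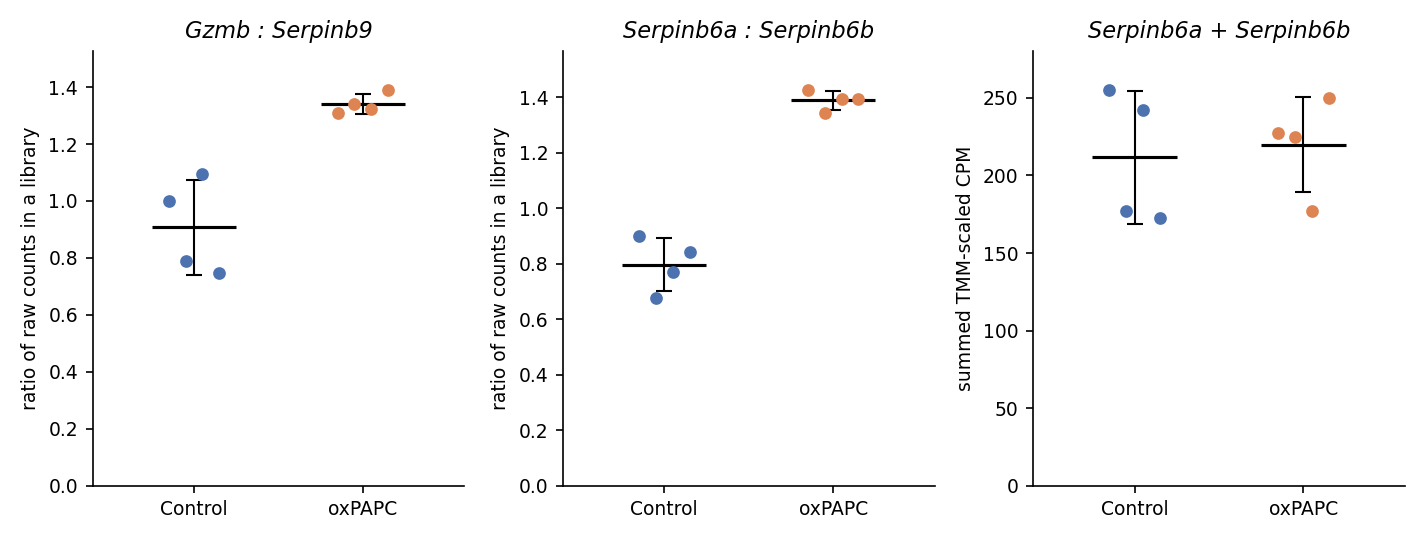
Left and middle, ratio of raw counts of Gzmb to Serpinb9 and of Serpinb6a to Serpinb6b in each library (y axis, from 0). Right, summed TMM-scaled CPM of Serpinb6a and Serpinb6b. Points are libraries, long lines means and error bars SD of 4 libraries. Both ratios are higher in all 4 oxPAPC libraries than in any Control library, while the sums overlap.

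Levels of different genes were compared per kilobase of exon. In Control libraries the order by mean was Nkg7 (75.1 CPM per kb), Ctsw (53.1), Serpinb6b (52.0), Srgn (25.6), Serpinb6a (17.4), Gzmb (5.58), Serpinb9 (2.50), Serpina3g (0.288), Prf1 (0.104) and Serpina3f (0.0861). Nkg7 overlapped Ctsw, Ctsw overlapped Serpinb6b, Srgn overlapped Serpinb6a, Serpina3g overlapped Prf1, and Prf1 overlapped Serpina3f, so that these neighbours did not differ beyond their spread. In oxPAPC libraries Srgn, at 45.2 CPM per kb, stood among Ctsw (46.3) and Serpinb6b (40.7), with overlapping values. Gzmb reached 15.6 CPM per kb and remained below Serpinb6a (23.6), and Prf1 (0.161) was the lowest of the 10 genes. With the length of the longest transcript in place of all exons, Serpinb6a had 42.9 CPM per kb in Control libraries and came before Srgn (32.6), and in oxPAPC libraries it had 58.3 CPM per kb and came after Nkg7. These places are not distinct, since Serpinb6a overlapped Srgn in both groups and, in oxPAPC libraries, Srgn (57.5) overlapped Ctsw (55.8).

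**Figure D4:**
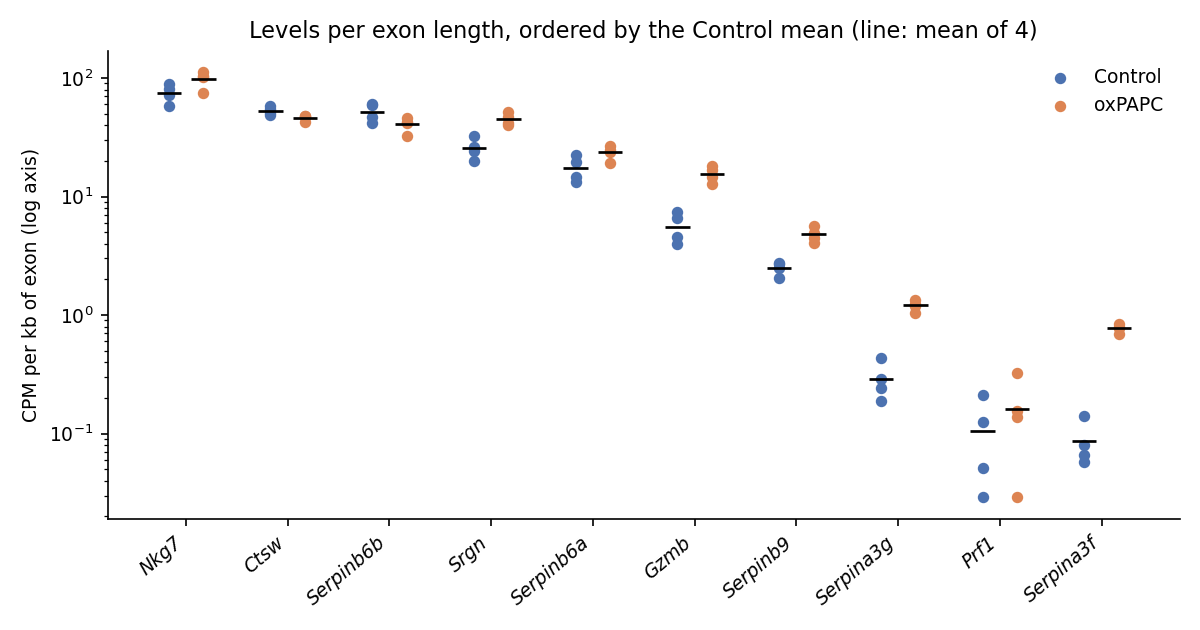
TMM-scaled CPM per kilobase of exon (y axis, log scale) for the 10 genes, ordered by their Control mean. Points are libraries and lines are means of 4. Prf1 lies between 0.0289 and 0.324 over both groups, whereas Gzmb, Serpinb9, Serpina3g and Serpina3f are higher in oxPAPC libraries.

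Over the 8 libraries, and with the 10 genes described here left aside, the genes whose log2 CPM followed that of Gzmb most closely were Lcn10, Cd48, Ly6a, Ddx31 and Alg8, with Pearson r of 0.985, 0.983, 0.980, 0.979 and 0.977, ranked among 9323 protein-coding genes. All 5 rose, with log2 fold changes of 0.85, 1.16, 3.82, 0.53 and 0.76. The call of Lcn10 was lost without Control replicate 2 (edgeR adjusted p = 0.0539), and that of Ddx31 was lost without any 1 of 7 libraries, all but Control replicate 3 (0.0534 to 0.104). The replicate block (0.0578) and scaling by library size (0.0642) ended it too. Among the other members, r with Gzmb was 0.985 for Serpinb9, 0.923 for Serpina3g, 0.905 for Serpina3f, 0.842 for Srgn, 0.784 for Serpinb6a and 0.445 for Nkg7, and it was -0.462 for Serpinb6b and -0.656 for Ctsw. These correlations describe libraries that fall into the same 2 groups for every gene, so a difference between groups alone gives a high r.

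The remaining genes of the pathway were taken from lists of genes by name. These lists were chosen with earlier results of these data known. The shares of each list called, beside that of all tested genes, are therefore a description. Of 10 granzyme genes 4 are in the table, and 6 (Gzma, Gzmd, Gzme, Gzmf, Gzmg and Gzmn) were not analysed here. Gzmm had 2.17 ± 0.424 and 2.50 ± 0.531 CPM (SD, n = 4 each) and was not called (log2 fold change 0.21, edgeR adjusted p = 0.666). Gzmc and Gzmk were too low to be tested, with oxPAPC means of 0.359 and 0.442 CPM. Of the 6 tested genes among other serpins, Serpine2, which encodes the secreted thrombin inhibitor protease nexin, rose from 5.82 ± 0.593 to 18.0 ± 3.81 CPM (SD, n = 4 each; log2 fold change 1.62, edgeR adjusted p = 0.000102), and the other 5 were not called.

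The machinery of granule release was mostly not called. Of 22 tested genes 1 rose and 2 fell, 13.6% against 13.3% of all tested genes, with a median log2 fold change of 0.07 against -0.01. Stx11, a syntaxin required for cytotoxic granule fusion, rose from 25.5 ± 4.54 to 49.7 ± 5.10 CPM (SD, n = 4 each; log2 fold change 0.96 ± 0.15, SE, edgeR adjusted p = 0.00113). The synaptotagmin-like Rab27 effectors Sytl2 and Sytl1 fell by 1.05 and 0.93 on the log2 scale. The replicate block took Sytl1 over the threshold (edgeR adjusted p = 0.0649). Rab27a, Unc13d and Stxbp2, which act with Stx11 in granule docking and fusion, had log2 fold changes of 0.12, 0.11 and -0.09 and were not called.

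Of 17 tested cathepsin and cystatin genes 2 rose and 1 fell (17.6% against 13.3% of all tested genes, median log2 fold change -0.04). Ctsc, which encodes the dipeptidyl peptidase that activates granzymes, rose by 0.56 on the log2 scale (edgeR adjusted p = 0.0236). Cst7, which encodes cystatin F, an inhibitor of that peptidase, rose by 1.14 from 1.98 to 4.41 CPM (edgeR adjusted p = 0.0246). Ctsl, encoding cathepsin L, fell by 0.78 (edgeR adjusted p = 0.0236). These 3 calls did not hold under every alternative, although the log2 fold changes kept their sign. With a library left out they were 0.48 to 0.64 for Ctsc, 1.00 to 1.43 for Cst7 and -0.88 to -0.67 for Ctsl. Leaving out Control 1, 2 or 4 or oxPAPC 4 ended the call of Ctsc (0.0553 to 0.0836), as did library size scaling (0.0522). Leaving out Control 1, 2 or 4 or oxPAPC 3 or 4 ended the calls of Cst7 (0.0521 to 0.0754) and Ctsl (0.0509 to 0.0727), and library size scaling (0.0983) and the replicate block (0.0598) ended that of Ctsl as well.

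Serglycin carries chondroitin sulfate chains, and 17 genes of chain synthesis were tested. Of these 2 rose and 2 fell (23.5% against 13.3% of all tested genes, median log2 fold change 0.12). The sulfotransferase gene Chst3 rose from 0.645 to 2.48 CPM (log2 fold change 1.94, edgeR adjusted p = 0.0029), and Chst15, another sulfotransferase gene, fell from 5.08 to 2.67 CPM (log2 fold change -0.93, edgeR adjusted p = 0.0125). Chst3 was low in Control libraries (0.322 to 0.998 CPM) and passed the filter with the help of the oxPAPC libraries, in which it was high. Xylt1, which starts the chain, and B3galt6, which extends its linker, had log2 fold changes of -0.59 and 0.74. Xylt1 missed the threshold with Control 2 or oxPAPC 4 left out (edgeR adjusted p of 0.0658 and 0.0687). B3galt6 missed it with any library left out except oxPAPC 4 (0.0537 to 0.151) and with the replicate block (0.0895). With library size scaling the calls of Xylt1 (0.123) and Chst15 (0.0517) were lost.

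Among 16 tested genes whose proteins granzyme B cleaves, 1 rose and the other 15 were not called (6.25% called against 13.3% of all tested genes, median log2 fold change -0.02), with 2 at an unadjusted p under 0.05 and 1 called by DESeq2. The tubulin gene Tuba1a rose by 0.70 on the log2 scale (edgeR adjusted p = 0.00733). Bid had a log2 fold change of 0.28 and was not called. Of 7 death ligand and receptor genes, Lta, Tnf, Tnfsf10 and Fasl rose by 1.76, 1.44, 0.82 and 0.55 on the log2 scale. The receptor gene Fas fell by 0.88 (edgeR adjusted p = 0.013), a call lost with library size scaling (0.0674). These 5 genes are 71.4% of the list, against 13.3% of all tested genes.

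Of 32 tested regulators of cytotoxic genes 8 rose and 3 fell, 34.4% against 13.3% of all tested genes, with a median log2 fold change of 0.31 against -0.01. The 4 with the smallest adjusted p were Tbx21 (T-bet), Irf4, Irf1 and Eomes, the T-box factor related to T-bet, which rose by 2.31, 1.43, 0.96 and 1.51 on the log2 scale, while Prdm1 (Blimp-1) and Runx3 had 0.87 and -0.02 and were not called. Klf2, Id3 and Tcf7, genes of resting T cells, fell by 0.86, 0.75 and 0.61 (edgeR adjusted p = 0.017, 0.014 and 0.0439). The groups overlapped for Id3 and Tcf7, and for Klf2 the nearest values were 58.20 and 58.22 CPM. These 3 calls were not followed through the processing alternatives.

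**Figure D5:**
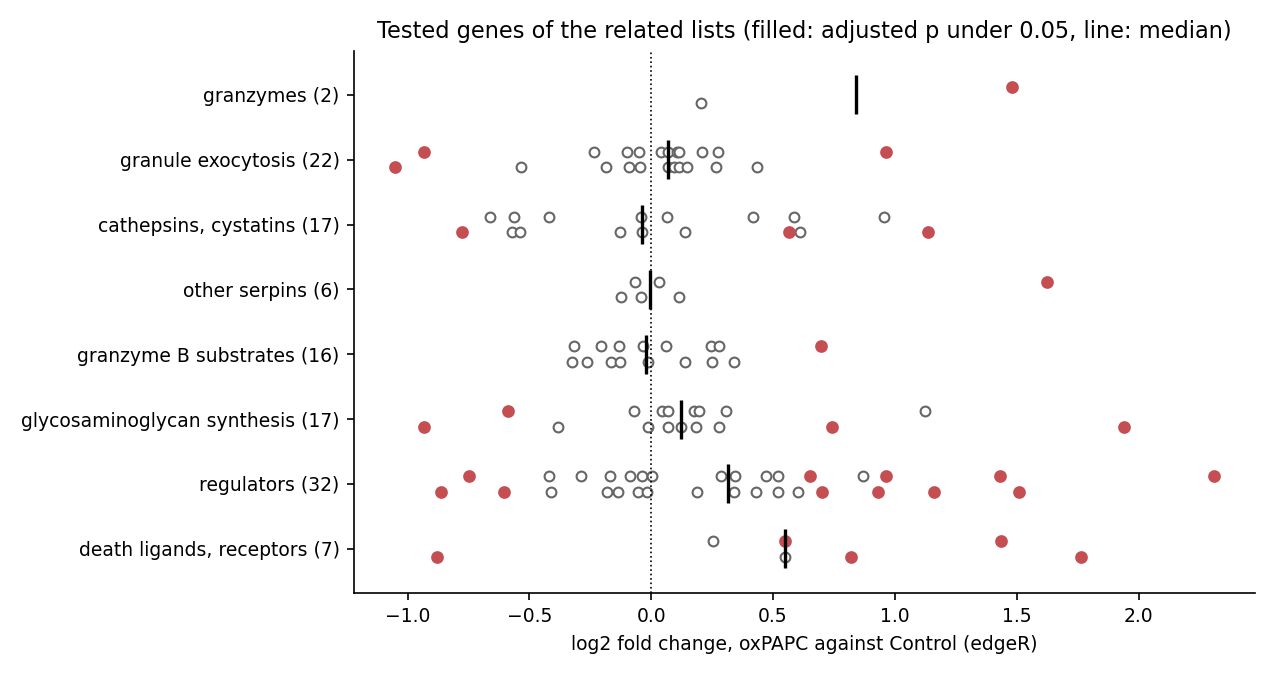
Log2 fold change of oxPAPC against Control (x axis) of each tested gene in 8 lists (y axis, number tested in brackets), filled where the adjusted p was under 0.05, with the median of each list as a vertical line. The medians lie at 0.07 for granule exocytosis, 0.31 for the regulators and 0.55 for the death ligands and receptors, and 21 of the 32 regulators are not filled.

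Markers of other cells that carry granzymes or serpins were measured beside these genes. In bulk RNA, fewer cells of a type and less RNA per cell cannot be told apart. Beside the markers called in each list, 13.3% of all tested genes were called, 6.75% higher and 6.52% lower. Of 19 natural killer cell markers 8 are in the table and 5 were tested, and their summed level was 3.96 to 7.08 CPM in Control and 10.9 to 15.1 CPM in oxPAPC libraries. Klrk1 rose from 0.601 to 2.66 CPM and Cd160 from 2.53 to 5.46 CPM, both also made by activated T cells. Not called were Tyrobp (0.648 and 0.709 CPM, Control and oxPAPC means), Klrd1 (0.778 and 0.890 CPM) and Klrc1 (0.708 and 1.75 CPM, edgeR adjusted p = 0.0657). Too low to be tested, Klrc2 (0.107 and 0.397 CPM) and Klri2 (0.146 and 0.437 CPM) were higher in oxPAPC without overlap. Fcer1g, not tested either, overlapped between groups (0.347 and 0.299 CPM). The defining markers Ncr1 and Klrb1c are among those not in the table, so they were not analysed here. Of the CD8 T cell pair, Cd8a was called (2.17 and 6.81 CPM, Control and oxPAPC means) and Cd8b1 was not (5.96 and 6.33 CPM), with sums of 6.72 to 8.90 and 10.9 to 18.7 CPM. The log2 fold change of Cd8b1 was 0.09 and turned to -0.11 without oxPAPC replicate 3. Both tested gamma delta T cell markers, Trgc2 and Blk, rose, as did 6.75% of all tested genes. The summed levels of that list were 1.28 to 2.65 CPM in Control and 2.24 to 3.97 CPM in oxPAPC libraries. Both were low in Control libraries (0.276 to 0.798 CPM for Trgc2 and 0.226 to 0.532 CPM for Blk) and passed the filter with the help of the oxPAPC libraries. Trdc, the constant gene of the delta chain, was too low to be tested and had the lower mean in oxPAPC (0.352 CPM, against 0.701 CPM in Control). Trgc1, not tested either, had 0.131 and 0.321 CPM. Trgc2 missed the threshold with Control 2 or 4 or oxPAPC 2, 3 or 4 left out (edgeR adjusted p of 0.0597 to 0.125), and the replicate block took both over it (0.106 and 0.0547).

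B cell markers summed to 65.0 to 87.7 and 69.0 to 108 CPM, with 4 of 10 tested genes higher (Pax5, Ebf1, Blnk and Ms4a1). Of all tested genes 6.75% were higher. The call of Ms4a1 was lost without Control replicate 2 or oxPAPC replicate 1 (0.0519 and 0.0503). The other 6 were not called. Among these Cd79b was lower without overlap (means of 5.46 and 3.65 CPM, log2 fold change -0.577, edgeR adjusted p = 0.0983). Cd79a, Ighm, Fcer2a, Cd22 and Ighd had log2 fold changes of 0.065, 0.133, 0.484, 0.49 and 0.614. Macrophage markers summed to 4.45 to 5.43 and 9.62 to 11.9 CPM, where Mpeg1 was the 1 gene of 5 that rose, and dendritic cell markers to 17.4 to 26.6 and 25.002 to 29.96 CPM, where Flt3 was the 1 of 4. These counts too stand beside the 6.75% over all tested genes. Of the mast cell and basophil list Kit fell and Hdc was not called, with sums of 19.1 to 27.8 and 11.9 to 16.9 CPM. The call of Kit was lost without Control replicate 4 or oxPAPC replicate 1 (0.051 and 0.0529) and with library size scaling (0.12). The 1 tested neutrophil gene, Ltf, was not called, and that list summed to 1.53 to 2.25 and 0.811 to 1.94 CPM. Klrk1, Pax5, Blnk, Ms4a1, Mpeg1 and Flt3 too passed the filter only with the oxPAPC libraries, their lowest Control values being 0.368, 0.322, 0.302, 0.184, 0.0665 and 0.0665 CPM. The part of these cells in the levels of Gzmb and the serpins was not tested.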

How the data were processed

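The authors deposited 1 table of raw whole-number gene counts in 8 libraries together with their own log2 fold changes and p-values, per the file headers. RNA was selected by poly(A), per the labels' protocols. STAR 2.7.8a, featureCounts 2.0.2, DESeq2 1.30.1 and GRCm38.p6 are named in the submitters' processing notes. Every one of its 19330 genes reaches 5 counts in 2 or more libraries.

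Counts were filtered with filterByExpr (minimum count 10), scaled by TMM and tested with edgeR 4.0.16 in R 4.3.3, without a block, with Benjamini-Hochberg adjustment over 16434 genes. The common biological coefficient of variation was 0.207. No 2 libraries of a group agreed within sampling noise. The SE was derived from the log2 fold change and the F statistic. Exon lengths and strands come from GENCODE M21, whose coordinates match 99.1% of the genes by identifier, since the table gives no length. Promoter windows come from RefSeq on GRCm38.p6, and the 50 bases after the start were left out.

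Alternatives were RLE scaling, library size scaling, all genes unfiltered, only genes averaging 5 CPM or more, DESeq2 1.42.0, voom of limma 3.58.1, the replicate number as a block, Gm26917 and Rn7sk left out, and each library left out. The genes and lists were chosen with earlier results of these data known, and the motifs with the sequences in view. A few genes are not reported here and were left out of the lists and their counts. Genes named are the 10 members, up to 4 called genes with the smallest adjusted p from each pathway list, 6 T cell and Treg markers and the 5 genes most like Gzmb, taken among other protein-coding genes with a mean of at least 5 CPM without predicted genes. Others named, among them Fasl, Klf2 and the cell type markers, were chosen after their values were seen.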

Additional observations from a re-analysis of the deposited data

Results flagged for a closer look

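A search of 112 sets of 4 values for a library far from the other 3 returned 3 cases, where chance alone gives about 1 in 20. None of them is a value of the 10 genes described above. Ikzf2, which encodes the Treg factor Helios, had 212 CPM in Control replicate 3, against 121 to 127 CPM in the other Control libraries. In oxPAPC replicate 4 the level of Ctla4 was 149 CPM, the other oxPAPC libraries having 112 to 116 CPM. Flt3 had 1.39 CPM in oxPAPC replicate 2, against 0.913 to 0.971 CPM.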

How the results depend on the processing

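All 9 tested members kept their direction and their side of the threshold under each of the 16 alternatives that tested them. The filter at a mean of 5 CPM removed Serpina3f and Serpina3g, which left 3 members called. With a library left out, all 5 calls remained (5 genes in each fit). The log2 fold changes then ranged from 1.35 to 1.65 for Gzmb, 0.71 to 0.95 for Srgn, 0.85 to 1.01 for Serpinb9, 2.94 to 3.43 for Serpina3f and 1.89 to 2.33 for Serpina3g. Over the whole table, leaving out a library gave 1390 to 2134 called genes, 710 to 1057 higher and 680 to 1144 lower, lowest without Control replicate 2 and with 694 lower without oxPAPC replicate 4, in fits with fewer samples. With library size scaling 458 genes were lower, and the cause was not tested. With the replicate number as a block, 1453 genes were called, 708 of them lower, and among members the adjusted p were 0.00406 for Gzmb, 0.0115 for Serpinb9 and 0.00838 for Srgn. The block was not used in the test reported, because pairing by number had little support: deviations of same-numbered libraries had r of 0.321, -0.0528, -0.368 and -0.0354, and own-number correlation was highest for 2 of 8. Of 44 other named genes followed through the alternatives, 27 kept direction and side throughout. Further genes named above, among them Klf2, Id3, Tcf7 and Fasl, were not followed in this way. The log2 fold change of Foxp3 was 0.052 after library size scaling and -0.326 to 0.089 in the fits without a library, where that of Cd8b1 was -0.11 to 0.219. Depth limits Prf1 most, with 1 to 19 counts a library.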
